A study of Mus musculus with 2 samples.

Results

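The genes described here are feedback inhibitors and transcriptional outputs of the extracellular signal-regulated kinase (ERK) pathway, measured in the dormant DMC-derived melanoma line B16F1-GFP-D and in its maternal line B16F1-GFP-M. They were chosen by name, with earlier results of these data known: *Dusp4*, *Dusp5*, *Dusp6*, *Spry1*, *Spry2*, *Spry4*, *Spred1*, *Etv4*, *Etv5* and *Egr1*. Each probe whose array annotation or current symbol named one of them was taken. Of these 10 genes, 9 are among the 27790 genes on the arrays, and *Dusp5* had no matched probe. Both lines are B16F1 mouse melanoma cells that carry a GFP expression vector. B16F1-GFP-D arose from a single colony of GFP+ cells that had been sorted from the pooled organs of immunised and control tumour-free mice long after tumour cell injection, so that it represents 1 clone. B16F1-GFP-M is the non-dormant culture that B16F1-GFP-D derives from. Both were grown without treatment in DMEM with serum, and their RNA was hybridised together on 2-colour Agilent arrays, with B16F1-GFP-D in Cy3 on array 1 and in Cy5 on array 2. The 2 arrays are a technical dye swap of 1 replicate per line, so that the lines were not tested against each other, and every error given is the standard deviation (SD) between the 2 arrays. The study set these lines side by side to look for molecular differences that accompany melanoma dormancy.

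Growth factor receptors activate RAS, which starts a cascade of RAF, MEK and ERK kinases, and active ERK phosphorylates transcription factors that switch on a set of target genes within minutes to hours. Several of these targets act back on the pathway: the dual-specificity phosphatases *Dusp4*, *Dusp5* and *Dusp6* remove the activating phosphates of ERK, and the Sprouty and Spred proteins restrain the steps between the receptor and RAF. Others, such as *Egr1* and the ETS factors *Etv4* and *Etv5*, carry the signal on to further genes. In melanoma, where mutated RAF or RAS often drives this pathway, the transcripts of these genes are commonly read as a measure of ERK output. The arrays measured RNA and neither protein nor phosphorylation.

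Before the values, the promoters of 3 members are shown: *Dusp6*, which had the lowest ratio of all members, and *Spry1* and *Spry2*, a pair of one family with the lowest ratio and the ratio nearest to 0 among its detected genes. Promoters were read from RefSeq as the 250 bases before each start, on GRCm38.p6. From the promoter table, 6 of the 10 members with 7 starts were read, and *Spry4* and *Egr1* were left out of the search. Capitals mark GGAA on either strand, the core that ETS factors recognise. They lie at chr10:99262981-99263230 on the plus strand for *Dusp6*, at chr3:37639697-37639946 on the plus strand for *Spry1*, and at chr14:105896820-105897069 on the minus strand for *Spry2*, each written 5′ to 3′ in the direction of its gene.
Dusp6: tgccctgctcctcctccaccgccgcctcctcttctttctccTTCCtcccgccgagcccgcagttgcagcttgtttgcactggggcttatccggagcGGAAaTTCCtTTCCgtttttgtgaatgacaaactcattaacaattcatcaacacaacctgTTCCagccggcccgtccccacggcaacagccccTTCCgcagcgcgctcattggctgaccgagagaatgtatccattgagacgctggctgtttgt
Spry1: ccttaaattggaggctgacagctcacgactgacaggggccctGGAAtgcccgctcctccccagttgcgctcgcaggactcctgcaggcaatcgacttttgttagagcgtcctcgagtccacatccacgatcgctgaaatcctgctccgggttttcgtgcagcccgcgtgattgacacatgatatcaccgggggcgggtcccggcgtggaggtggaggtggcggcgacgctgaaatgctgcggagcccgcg
Spry2: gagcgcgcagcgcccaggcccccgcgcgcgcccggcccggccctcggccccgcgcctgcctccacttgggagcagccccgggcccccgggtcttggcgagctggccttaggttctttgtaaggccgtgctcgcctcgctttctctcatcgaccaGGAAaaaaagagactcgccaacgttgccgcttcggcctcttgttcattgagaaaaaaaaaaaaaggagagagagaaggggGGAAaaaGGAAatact

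The *Dusp6* promoter held 6 GGAA cores, that of *Spred1* 4, that of *Spry2* 3 and that of *Spry1* 1. That of *Dusp5* held 3, and the 2 starts of *Etv5* held 0 and 4. Among all 32851 promoters of the table the median was 3, with quartiles of 2 and 4, and 93.4% held at least 1. The search for this short core was added after the values had been seen. None of 4 longer motifs, searched on both strands, was found in the promoters of *Dusp6*, *Spry1*, *Spry2*, *Spred1* or *Etv5*: the ETS motif CCGGAAGT, which contains the core and is held by 2.88% of all promoters, the AP-1 motif TGANTCA, held by 6.75%, the cyclic AMP response element TGACGTCA, held by 1.55%, and the CArG box bound by serum response factor, held by 1.47%. The promoter of *Dusp5* held 2 CArG boxes. A match is a description of the letters in this window, and nothing follows from its absence.

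On these arrays 44.1% of the spots in array 1 and 56.1% in array 2 were well above background for B16F1-GFP-D, and 60.7% and 45.0% for B16F1-GFP-M, with no saturated spot. Of the 10 members, 9 had at least 1 probe, with 15 probes in all. No probe matched *Dusp5* by symbol or RefSeq accession. A gene was read from its brightest probe and counted as detected when, on both arrays, that probe stood well above background in B16F1-GFP-D, in B16F1-GFP-M or in both. By this measure 7 members were detected, and *Spry4* and *Etv5* were not. Of the 7, *Dusp6* was lower and *Egr1* was higher in B16F1-GFP-D by at least 2-fold on both arrays, a rule of size that stands in for a test. These 2 of 7 genes, or 28.6%, compare with 5.02% of all 12540 detected genes past the same threshold, 3.09% higher and 1.94% lower. The members were chosen with earlier results of these data known, so the shares of members given here are not those of an independent set. Of the 7 detected members, 5 were below 0 on both arrays, 1 was above 0 on both and 1 had opposite signs, while 42.8% of all detected genes were below 0 on both. The 5 below 0 are all feedback inhibitors. Of all 12540 detected genes, 5143 were above 0 on both arrays and 5363 were below 0 on both. Where the lines are said below not to overlap, this compares 2 technical readings of 1 sample per line. The share of all detected genes without such overlap was not computed. In bulk RNA, fewer cells that express a gene and less RNA per cell cannot be told apart.

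**Figure D1:**
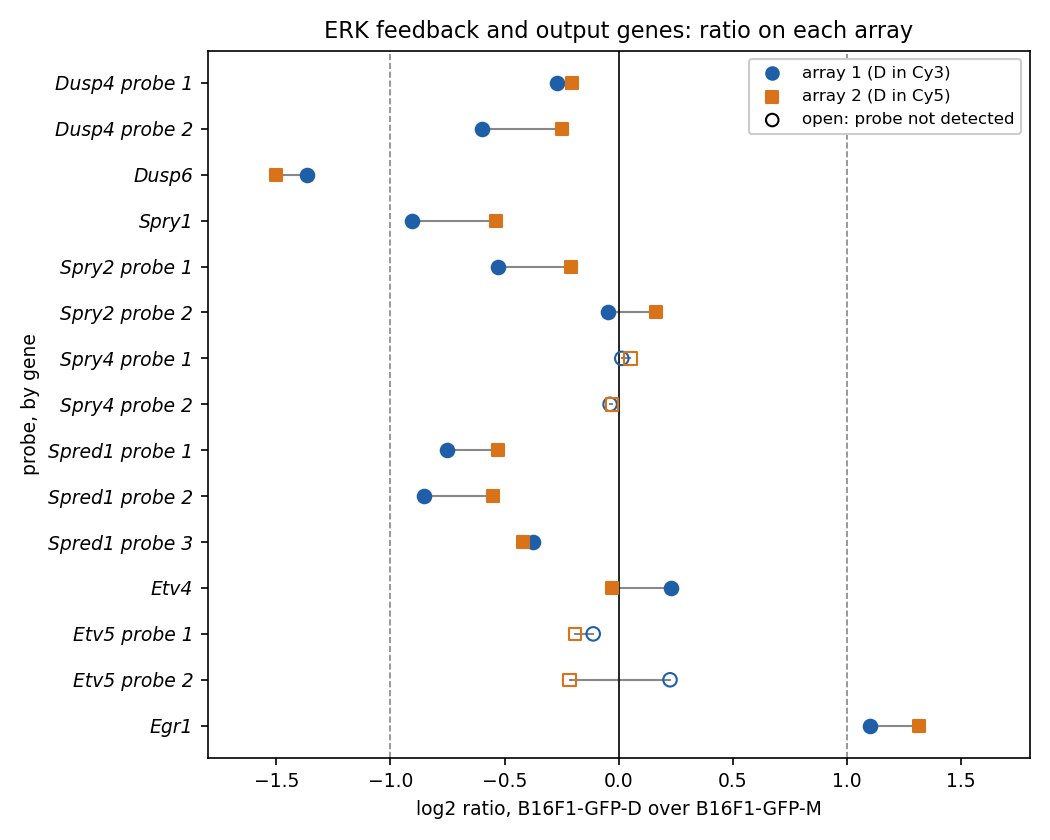
Log2 ratio, as B16F1-GFP-D relative to B16F1-GFP-M (x axis), for each of the 15 probes of 9 members (y axis), on array 1 (circles) and array 2 (squares), with open symbols for probes that were not detected and dashed lines at 2-fold. *Dusp6* lies beyond the line on the left and *Egr1* beyond the line on the right on both arrays, and the brightest probes of *Dusp4*, *Spry1*, *Spry2* and *Spred1* lie between 0 and the left line.

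The phosphatase *Dusp6*, which acts on ERK in the cytoplasm, showed the largest difference among the members. Its single probe, at chr10:98729985-98730044 on mm9, had a normalized log2 intensity of 11.32 on array 1 and 11.30 on array 2 in B16F1-GFP-D, and of 12.68 and 12.80 in B16F1-GFP-M. Both values of B16F1-GFP-D lay below both of B16F1-GFP-M, and the probe was far above background in each channel, at 61.4 to 65.4 times the local background in B16F1-GFP-D and 153 to 171 times in B16F1-GFP-M. The log2 ratio was −1.37 on array 1 and −1.50 on array 2, a mean of −1.43 ± 0.10 (SD between 2 arrays), or 2.70-fold lower in B16F1-GFP-D. Among the 12540 detected genes, 95 had a lower mean ratio.

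*Dusp4*, a nuclear phosphatase of the same family, differed far less. Its brightest probe, at chr8:35882045-35882104 on mm9, had a normalized log2 intensity of 11.07 and 11.04 in B16F1-GFP-D against 11.34 and 11.25 in B16F1-GFP-M on arrays 1 and 2. The lines did not overlap, but the mean log2 ratio was only −0.24 ± 0.04 (SD between 2 arrays), or 1.18-fold lower in B16F1-GFP-D. A second probe, at chr8:35884806-35884865, gave −0.60 on array 1 and −0.25 on array 2, with a mean of −0.42 ± 0.25. The probes thus had the same sign and differed in size, and neither was past 2-fold on either array.

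*Spry1* and *Spry2*, which encode Sprouty proteins, were both lower in B16F1-GFP-D on both arrays without passing 2-fold. For *Spry1*, whose probe lies at chr3:37543194-37543253 on mm9, the normalized log2 intensity was 9.22 on array 1 and 9.41 on array 2 in B16F1-GFP-D, and 10.13 and 9.95 in B16F1-GFP-M. The log2 ratio was −0.91 and −0.54, a mean of −0.72 ± 0.26 (SD between 2 arrays), or 1.65-fold lower. The arrays differed more for *Spry1* than for the brightest probe of any other detected member, and the ratio passed 1.5-fold on array 1 only. For *Spry2*, the brightest probe, at chr14:106291385-106291444, read 8.91 and 9.02 in B16F1-GFP-D against 9.44 and 9.23 in B16F1-GFP-M, with a mean log2 ratio of −0.37 ± 0.22. The lines did not overlap on this probe. The second *Spry2* probe, at chr14:106291901-106291960, was dim, at only 2.07 to 2.87 times its local background, and gave −0.05 on array 1 and 0.16 on array 2, so that the lower value of *Spry2* rests on 1 probe. Both *Spry4* probes were not well above background in either line on either array, and no level or ratio of this gene can be given from them.

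*Spred1*, a Sprouty-related protein that brings the RAS inhibitor neurofibromin to the membrane, was read by 3 probes, all lower in B16F1-GFP-D on both arrays. The brightest, at chr2:117007850-117007909 on mm9, had a normalized log2 intensity of 9.38 and 9.40 in B16F1-GFP-D and of 10.14 and 9.93 in B16F1-GFP-M on arrays 1 and 2, a mean log2 ratio of −0.64 ± 0.16 (SD between 2 arrays). The probe at chr2:116997721-116997780 gave −0.86 and −0.55, and that at chr2:117003056-117003115 gave −0.37 and −0.42. The values of the lines did not overlap for the 2 brighter probes and did for the dimmest, whose ratio was nonetheless below 0 on each array. The ratio of the brightest probe was past 1.5-fold on array 1 and not on array 2.

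**Figure D2:**
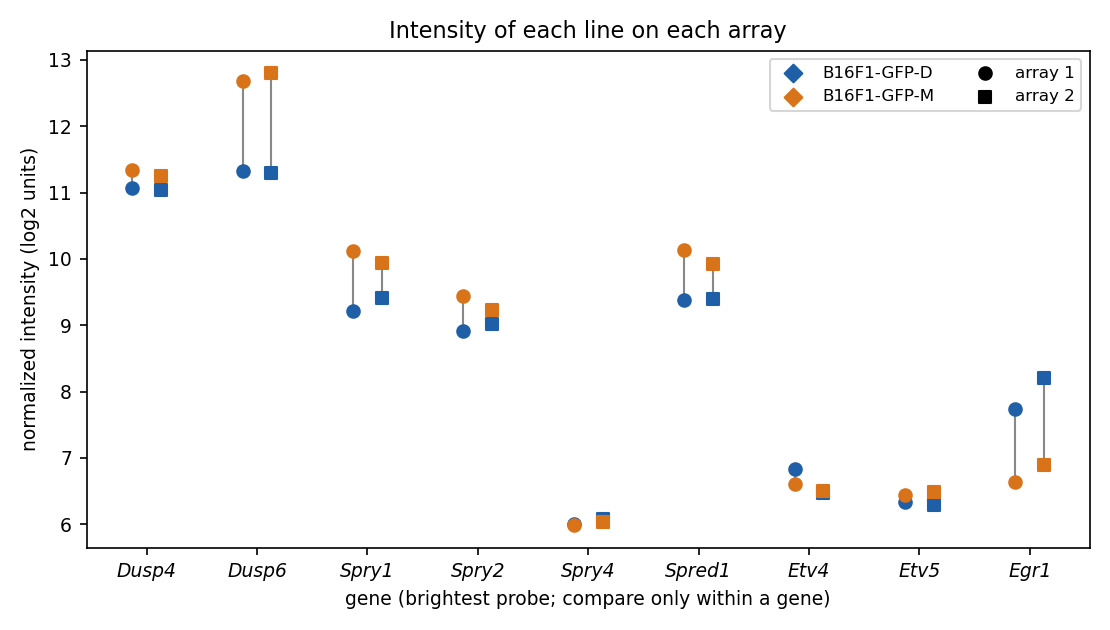
Normalized intensity in log2 units (y axis) of the brightest probe of each of 9 members (x axis) in B16F1-GFP-D (blue) and B16F1-GFP-M (orange), on array 1 (circles) and array 2 (squares), with a line joining the 2 lines of an array. Levels can be compared within a gene only; for *Dusp6* the values of B16F1-GFP-M (12.68 and 12.80) lie above those of B16F1-GFP-D (11.32 and 11.30), and for *Egr1* the order is turned.

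The transcription factor *Egr1*, an immediate early gene that ERK switches on through serum response factor and its ETS partners, went the other way. The normalized log2 intensity of its single probe was 7.74 on array 1 and 8.20 on array 2 in B16F1-GFP-D, and 6.63 and 6.89 in B16F1-GFP-M, with no overlap between the lines. The log2 ratio was 1.10 and 1.31, a mean of 1.21 ± 0.15 (SD between 2 arrays), or 2.31-fold higher in B16F1-GFP-D, and 284 detected genes had a higher mean ratio. The probe was well above background in both lines but dim in B16F1-GFP-M, at 2.30 and 2.80 times the local background against 6.39 and 6.66 in B16F1-GFP-D. The size of the difference varied with the processing: the log2 ratio was 1.29 without background subtraction, 1.94 with a normexp offset of 0 in place of 50, and 2.28 by the scanner software's ratio, which differs in both background correction and dye normalization. The direction was the same under all 9 alternatives, not all of which could differ from the main setting.

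*Etv4* and *Etv5* encode ETS factors whose transcription depends on ERK in many tissues, and neither showed a difference that both arrays shared at a measurable level. The *Etv4* probe, at chr11:101631443-101631502 on mm9, read 6.84 and 6.47 in B16F1-GFP-D against 6.61 and 6.50 in B16F1-GFP-M on the normalized log2 intensity scale, and was well above background on 1 of the 2 arrays in B16F1-GFP-M. The lines overlapped, and its log2 ratio was 0.23 on array 1 and −0.03 on array 2, a mean of 0.10 ± 0.18 (SD between 2 arrays). The brightest *Etv5* probe, at chr16:22383406-22383465, was well above background only in the Cy5 channel of each array, which held a different line on each. Its log2 ratio was −0.11 and −0.19, and the second probe, at chr16:22382377-22382436, was not well above background in either line. The scanner software's log ratio placed these 2 *Etv5* probes on opposite sides of 0, at −1.19 and 0.96, so that no direction is given for this gene.

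Across the 5 feedback inhibitors that were detected, the median log2 ratio was −0.64, from −1.43 for *Dusp6* to −0.24 for *Dusp4*, beside a median of −0.01 over all detected genes. In the order of the mean ratios, *Dusp6* (−1.43) was followed by *Spry1* (−0.72), *Spred1* (−0.64), *Spry2* (−0.37), *Dusp4* (−0.24), *Etv4* (0.10) and *Egr1* (1.21). The SDs between the arrays are technical, so differences between these genes were not tested. The *Etv4* probe was dim, and the offset of 50 draws dim ratios towards 0. The ratios of *Dusp4*, *Spry1*, *Spry2* and *Spred1* were all larger in size on array 1 than on array 2, and those of *Dusp6* and *Egr1* were larger on array 2. All detected genes together had a median of −0.03 (array 1) and 0.02 (array 2).

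The other genes of the pathway were described through 8 lists of 94 genes, of which 70 were detected. Past 2-fold on both arrays were 2 of the 70, or 2.86% against 5.02% of all detected genes, and past 1.5-fold were 11, against 15.8%. The count over the pathway was therefore not above that of the arrays as a whole. Both genes past 2-fold, *Fos* and *Met*, were higher in B16F1-GFP-D. The median log2 ratio over the 70 genes was −0.07, with 23 higher on both arrays, 36 lower on both and 11 with opposite signs.

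**Figure D3:**
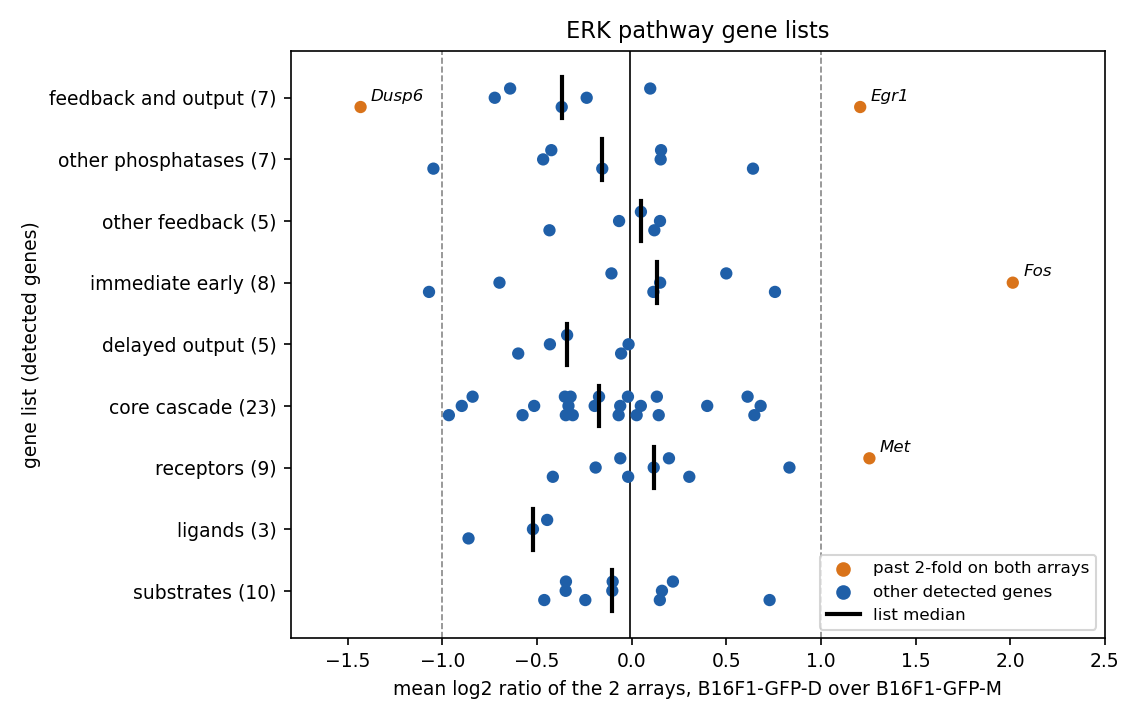
Mean log2 ratio, as B16F1-GFP-D relative to B16F1-GFP-M (x axis), of each detected gene in the feedback and output genes and in 8 further lists of the pathway (y axis, with the number of detected genes), with bars at the list medians, dashed lines at 2-fold and the solid line at the median of all detected genes (−0.01). *Dusp6*, *Egr1*, *Fos* and *Met* are past 2-fold on both arrays, and the other detected genes scatter on both sides of 0.

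Among the immediate early genes, of which 8 of 10 were detected, *Fos* and *Fosb* stood on the side of *Egr1* and *Myc* on the opposite side. *Fos*, which encodes a subunit of the AP-1 factor, read 8.45 and 9.06 in B16F1-GFP-D against 6.51 and 6.97 in B16F1-GFP-M in normalized log2 intensity on arrays 1 and 2. Its mean log2 ratio was 2.01 ± 0.11 (SD between 2 arrays), or 4.04-fold higher. The spot of *Fos*, like that of *Egr1*, was dim in B16F1-GFP-M, and the scanner software's ratio for it was 3.38. *Fosb* was not well above background in B16F1-GFP-M on either array, and as a mean of the 2 arrays was at least 1.56-fold higher in B16F1-GFP-D. *Myc*, a driver of growth, read 9.09 and 8.97 in B16F1-GFP-D against 10.06 and 10.14 in B16F1-GFP-M, a mean log2 ratio of −1.07 ± 0.13 that missed 2-fold on array 1, and its 2 other probes gave −0.69 and −0.25. The list had 4 genes higher on both arrays, 3 lower and 1 with opposite signs, with a median of 0.13, so that its genes shared no direction.

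The other dual-specificity phosphatases were all 7 detected and none was past 2-fold on both arrays. *Dusp1*, itself an immediate early gene, had a log2 ratio of 0.48 and 0.80 on arrays 1 and 2, the highest of the list. *Dusp2*, a nuclear phosphatase, had the lowest, −1.13 and −0.96, while its second and dimmer probe gave a mean of −0.30. The list divided into 3 genes higher on both arrays, 3 lower and 1 with opposite signs, with a median of −0.16. The gene with opposite signs was *Dusp8*, named here after its values were seen, whose brightest probe gave 0.13 and −0.44. Its 2 other probes, also well above background in both lines, gave −1.33 and −0.99 for one and −0.78 and −1.02 for the other, so that the probes of *Dusp8* disagree. Of the other feedback genes, 5 of 7 were detected, with means from −0.43 for *Lrig1*, which promotes the loss of ERBB receptors, to 0.15 for *Il17rd*, an inhibitor of FGF signalling, and a median of 0.05. A second *Il17rd* probe, also well above background in both lines, gave −0.32 on array 1 and −0.16 on array 2, so that its probes disagree. On the brightest probes, the lower values of the Sprouty and Spred genes above were not shared by this list as a whole.

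In the delayed output list, 5 of 7 genes were detected, 4 of them lower on both arrays, with a median of −0.34. The lowest was *Phlda1*, at −0.54 and −0.66, and the highest was *Ccnd1*, which encodes cyclin D1, at −0.07 and 0.04. None passed 1.5-fold on both arrays. Among 13 ERK substrates and the factors downstream of them, 10 were detected, with a median of −0.10. *Mknk2*, a kinase that phosphorylates the translation factor eIF4E, was the highest at 0.76 and 0.69, and *Elk4*, an ETS partner of serum response factor, the lowest at −0.51 and −0.41.

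The core cascade from adaptors to ERK had 23 of 24 genes detected, with 14 lower on both arrays, 5 higher and 4 with opposite signs, and a median log2 ratio of −0.17. Members of one tier went in different directions. *Araf* had a log2 ratio of −0.89 and −1.04 on arrays 1 and 2, although its second probe was not well above background in either line, and the exchange factor *Sos2* had −1.01 and −0.79. The RAS-related *Mras* followed with −0.98 and −0.70, and its 2 other probes above background gave means of −0.85 and −0.65. On the other side, *Map2k1*, which encodes the kinase MEK1, was the highest gene of the cascade at 0.54 and 0.82. None of these was past 2-fold on both arrays.

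Of 13 receptors, 9 were detected, with a median of 0.12. *Met*, the receptor of hepatocyte growth factor, read 13.72 and 13.69 in B16F1-GFP-D against 12.49 and 12.40 in B16F1-GFP-M in normalized log2 intensity, a mean log2 ratio of 1.26 ± 0.04 (SD between 2 arrays), or 2.39-fold higher. Its 2 other probes had means of 0.85 and 0.90, on the same side but short of 2-fold. *Pdgfrb* was not well above background in B16F1-GFP-M on either array, and as a mean of the 2 arrays was at least 1.68-fold higher in B16F1-GFP-D. *Insr*, the insulin receptor, was the lowest of the list at −0.39 and −0.44. Of 13 ligands only *Pdgfa*, *Fgf1* and *Hbegf* were detected, all lower on both arrays. *Pdgfa*, a ligand of platelet-derived growth factor receptors, had the lowest log2 ratio, −0.99 and −0.74, with a mean of −0.54 for its other probe, while *Fgf1* had a mean of −0.52 and *Hbegf*, the highest, of −0.45.

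The labelled cell type was checked through marker genes. All 7 melanocyte markers were detected in both lines, with a median log2 ratio of −0.34 and none past 2-fold on both arrays. Of the 7, 4 were lower on both arrays, 2 were higher on both and 1 had opposite signs. *Mitf*, the lineage factor of melanocytes, was the lowest at −0.92 ± 0.04 (SD between 2 arrays), with a mean of −0.51 for its dimmer second probe. *Pmel*, a melanosome protein, was the highest at 0.30 ± 0.37. No endothelial marker of 4 and no keratinocyte marker of 3 was detected. Of 6 fibroblast and 6 leukocyte markers, 2 each were detected, *Col1a1*, *Col1a2*, *Cd3e* and *Cd68*, all close to background, and *Ptprc*, which encodes the leukocyte antigen CD45, was not detected. The leukocyte markers *Cd3e* and *Cd68* were well above background on both arrays in B16F1-GFP-D and on 1 array in B16F1-GFP-M, as was *Col1a1*, while *Col1a2* was so on both arrays in both lines. The log2 ratio of *Cd68* was 0.51 and 0.36 on arrays 1 and 2, with a mean of 1.68 by the scanner software's ratio, and that of *Col1a1* was 0.38 and 0.41, with 1.97 by the scanner software. The mean ratio was −0.01 for *Cd3e* and −0.33 for *Col1a2*, and the part of these markers in the members' values was not tested. Over whole lists, most of whose probes were not well above background, the summed log2 level of the leukocyte list was 8.99 in B16F1-GFP-D and 8.94 in B16F1-GFP-M, and that of the fibroblast list 8.95 and 8.97. *Mitf* had its lower values in the same line as the feedback inhibitors, and its part in them was not tested.

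The ratios of the members were recomputed under 9 other settings. *Dusp6* stayed between −1.50 and −1.22 and *Egr1* between 1.10 and 2.28, each past 2-fold in 8 of the 9. The exception was median centring of each array in place of loess, under which the medians of all detected genes lay at −0.86 on array 1 and 1.02 on array 2, and neither gene was then past 2-fold on both arrays. Several of the other settings could not change these calls. Aquantile scaling left the ratios as they were, and the median over probes is the same single probe for both genes. Either array alone passes wherever both do, and the series value table repeats the scanner software's ratio in rounded form. *Spry1*, *Spry2*, *Spred1* and *Dusp4* were below 0 under all 9 and past 2-fold under none. *Etv4* was above 0 in 8 and below 0 on array 2 alone.

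**Figure D4:**
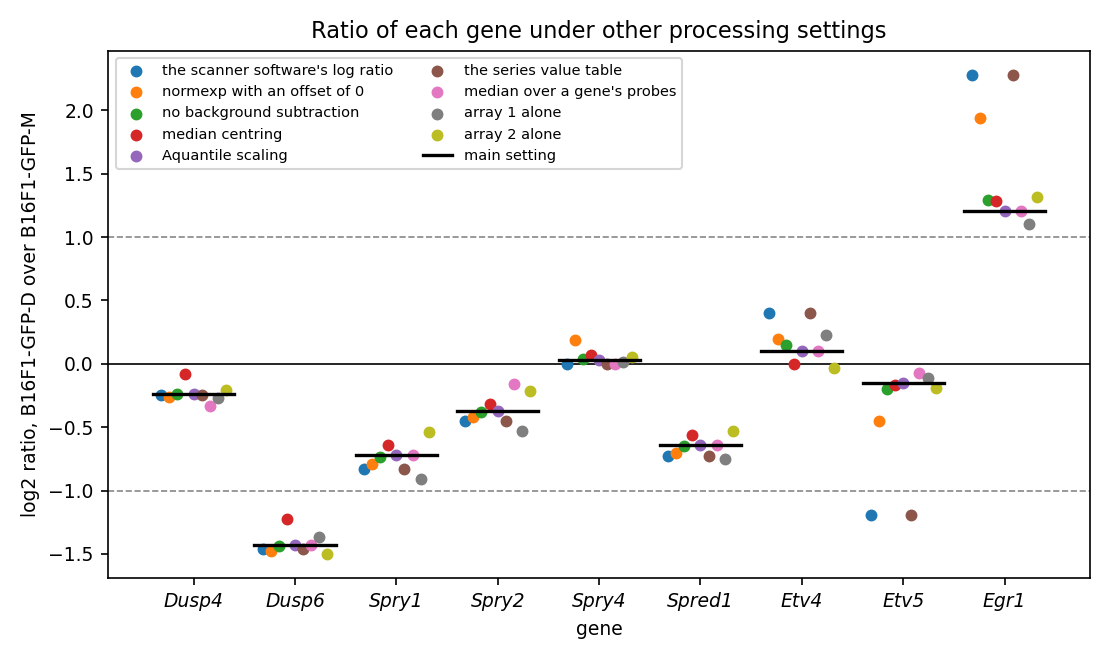
Log2 ratio, as B16F1-GFP-D relative to B16F1-GFP-M (y axis), of each of 9 members (x axis) in the main setting (black bars) and under 9 other settings (coloured points), with dashed lines at 2-fold. *Dusp6* lies from −1.50 to −1.22 and *Egr1* from 1.10 to 2.28, while the points of *Etv5*, which was not detected, reach −1.19.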

How the data were processed

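RNA of the B16F1-GFP-M and B16F1-GFP-D lines was hybridised to 2 Agilent 2-colour arrays in a dye swap. The deposited files hold each spot's mean intensity and local background intensity, which the authors had measured with Agilent Feature Extraction 10.7.3.1 (per the submitters' processing notes) and had not normalized. They also hold the log10 ratio of Cy5 over Cy3 that the software had made from signals it had itself corrected for background and dye; the deposited series table holds these log10 values rounded to within 0.0050, and both served only as alternatives. The settings of the authors' own comparison are not given in the sources used here.

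In R 4.3.3 with limma 3.58.1, mean signals were background-corrected by normexp (offset 50, so that dim spots have ratios nearer 0) and normalized by loess within each array. Outlier spots (143 and 176) and controls were left out. Each log2 ratio was given the direction B16F1-GFP-D relative to B16F1-GFP-M, and spots of a probe were averaged. Levels of each channel come from the same values after Aquantile scaling. Probes were named through RefSeq accessions with the table of GRCm38.p6, in which 27192 of 28069 probes with an accession matched. Probe positions were copied from the array files and are on mm9, whose annotation was not used here. Promoters were searched and tables written in Python 3.11.15 with pandas 2.3.3 and numpy 2.4.6, and figures drawn with matplotlib 3.10.9.

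The arrays count as 1 replicate per line, since the labels name no separate cultures or extracts. A gene was called when its brightest probe was detected and at least 2-fold different in the same direction on both arrays, a size criterion that stands in for a test. Where a line was not well above background on either array, a lower bound on the mean of the 2 arrays was computed. For the dim line it took, on each array, the higher of its own level and the lowest level among probes well above background. A single array can lie below this bound. The number of arrays limits the precision. The members and the gene lists were chosen with earlier results of these data known. Named in the text are all members, each other pathway gene called or past 1.5-fold on both arrays, and the highest and lowest detected gene of each pathway list. The markers named are the extremes of the melanocyte list, the detected fibroblast and leukocyte markers and *Ptprc*. Alternatives were other background corrections, normalizations, ratios, probe rules, filters, thresholds and each array alone. The procedure was also run on simulated arrays in which only probes well above background in both lines were changed. That run does not cover dim genes, its outcome is not given here, and no result rests on it.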

Additional observations from a re-analysis of the deposited data

How the results depend on the processing

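Ratios of the 9 members with a probe and of *Fos*, *Fosb*, *Met*, *Myc*, *Dusp2*, *Araf* and *Pdgfrb* were recomputed under 9 alternatives. Among these, *Etv4* lay below 0 on array 2 alone (−0.03), *Spry4*, which was not detected, kept its sign in 6 of 9, and the others kept theirs in all 9. The number of members past 2-fold on both arrays was 2 in 11 of 13 alternatives and 0 under median centring and at a 3-fold threshold. Aquantile scaling, the median over a gene's probes, either array alone, no filter on dim probes and the 1.5-fold threshold could not lower this count. The number of all genes past the threshold was 630 in the main setting, 1356 with the ratio of the scanner software, 1352 with the series table, 1077 with an offset of 0, 64 with median centring, 1980 at 1.5-fold and 123 at 3-fold. The number of pathway list genes, 2 in the main setting, was 7 with the scanner software's ratio and with the series value table, 6 with an offset of 0, 4 on either array alone, 11 at 1.5-fold, and 1 with median centring, with the median over a gene's probes and at 3-fold. The log2 ratio of *Dusp6* was −1.22 with median centring, and that of *Egr1* was 2.28 with the scanner software's ratio, 2.28 with the series value table and 1.94 with an offset of 0. Under median centring the detected genes had medians of −0.86 on array 1 and 1.02 on array 2, which hold opposite dye orientations. An offset of 0 by its construction no longer draws dim ratios towards 0. The causes of the other shifts were not tested. No paired analysis was possible because there is 1 replicate per line. Signal over background limits *Etv4*, *Etv5*, *Spry4* and the level of *Egr1* in B16F1-GFP-M, and the absence of biological replicates limits every value.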
